A study of Mus musculus with 16 samples.

Results

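Matrix Gla protein, encoded by Mgp, is a small secreted protein of cartilage, vessel wall and other connective tissues. It was followed as 1 gene of 29629 in a single-cell table of mouse cells driven toward tenocytes, and of 47729 in a table of bulk Achilles tendon. Mgp was chosen by its UMI counts over time in the single-cell table, so its levels at the 4 time points are given as a description, without a test. That choice was not made on the bulk tendon counts, and Mgp was tested there. Earlier results of these data were known when Mgp was chosen. The single-cell data came from mesodermal cells induced from ScxGFP iPSCs, a mouse iPSC clone with a green fluorescent reporter for the tendon transcription factor Scx. Cells at T0 had been induced in medium with 5% FBS, were then, by the study's methods, kept in medium with 1% FBS for the last day, and had received no TGF-β2. T3, T6, and T9 cells had then spent 3, 6, or 9 days with TGF-β2, a recombinant human protein used at 10 ng/ml, in medium with 1% FBS. Every time point was represented by 3 plates of 384 sorted wells. The bulk samples were Achilles tendons of 2-week-old littermates, 2 wild-type (Scx-Wt) and 2 Scx knockout (Scx-homoKO).

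No culture without TGF-β2 was sampled after T0, and the cells all descended from a single iPSC clone. Cells were released with trypsin at T0 but with collagenase followed by trypsin at T3 to T9, and the treated cells had also spent longer in medium with 1% FBS. Effects of TGF-β2, time in this medium, and dissociation therefore cannot be told apart in any contrast with T0. The labels do not say whether plates of a time point held separate cultures, so the spread between plates may be technical.

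Matrix Gla protein belongs to the vitamin K-dependent proteins, in which the γ-carboxylase Ggcx converts chosen glutamate residues into γ-carboxyglutamate (Gla), a residue that binds calcium. Reduced vitamin K is consumed in that reaction and is restored by the vitamin K epoxide reductase Vkorc1. The protein is best known as an inhibitor of soft tissue calcification, since mice without it calcify their arteries and growth plate cartilage, and it also binds BMP ligands. It is made mainly by chondrocytes, vascular smooth muscle cells, and fibroblasts.

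In the GRCm38 annotation, Mgp (ENSMUSG00000030218) lies on the minus strand of chromosome 6 at chr6:136872435-136875823. Its protein-coding transcript has 4 exons and 617 bases, of which 312 are coding and 212 form the 3′ UTR. A retained-intron transcript is also annotated, and all annotated exons cover 1187 bases. No other annotated gene overlaps the span, so Mgp reads had no overlapping gene to be shared with.

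After wells with fewer than 200 detected genes were left out, each plate kept 381 to 384 cells with 1921125 to 4657093 UMIs in total, and the bulk samples held 11188270 to 12398560 reads each. The 14 wells below that minimum held 3 Mgp UMIs among 3076, none of them at T0, and the 14 cells just above it held 1 Mgp UMI among 10176. Of 10 tenocyte markers, Tnmd and Kera were at 0 at T0 and all 10 were detected at T3, T6, and T9. All plates used the same 384 well barcodes by design. In plates T0-1, T0-2, T0-3, T3-2, T6-1, T6-3, and T9-3 the study listed a higher share of reads without a feature than in the other plates, and the Mgp levels of both kinds of plate are given below.

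No Mgp UMI was counted at T0. Among the 12691879 UMIs of the 1147 T0 cells there were 0 from Mgp in each of the 3 plates, which allows a level of up to 0.236 CPM (the count scaled to a library total of 1000000) over the group and a share of up to 0.262% of cells with an Mgp UMI. After 3 days, the CPM of Mgp was 1295, 1048, and 1324 in the 3 plates. After 6 days it was 3151, 3540, and 3142, and after 9 days 4938, 3756, and 3684. The means were 1222 ± 152 at T3, 3278 ± 227 at T6, and 4126 ± 704 at T9 (SD, n = 3 plates). Against the T0 limit of 3 UMIs over the group, the pooled level of the T3, T6, and T9 plates was higher by at least 5147-fold, 13777-fold, and 17673-fold. At T6 and T9, Mgp ranked between 20 and 23 among all genes by UMIs in a plate, and at T3 between 44 and 75.

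The order of the levels was T0, T3, T6, and T9. The step from T3 to T6 was 2.68-fold in the mean CPM and was far larger than the spread between plates. That from T6 to T9 was 1.26-fold. On CPM the T9 plates all lay above the T6 plates, but the lowest T9 plate and the highest T6 plate, 3684 and 3540, were close. With TMM-scaled CPM, which corrects for the make-up of each library, the means were 1236 ± 318, 3352 ± 817, and 5022 ± 1582, and the T6 and T9 plates overlapped. The T6 and T9 levels are thus not separated beyond the spread of the plates under both scalings. Counting error was small, with an exact Poisson 95% interval of 1245 to 1347 CPM in plate T3-1 and 4866 to 5010 in plate T9-1. Plates with the higher share of reads without a feature gave 1048, 3147, and 3684 CPM at T3, T6, and T9, and the other plates 1309, 3540, and 4347, so that both kinds showed the same order.

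**Figure D1:**
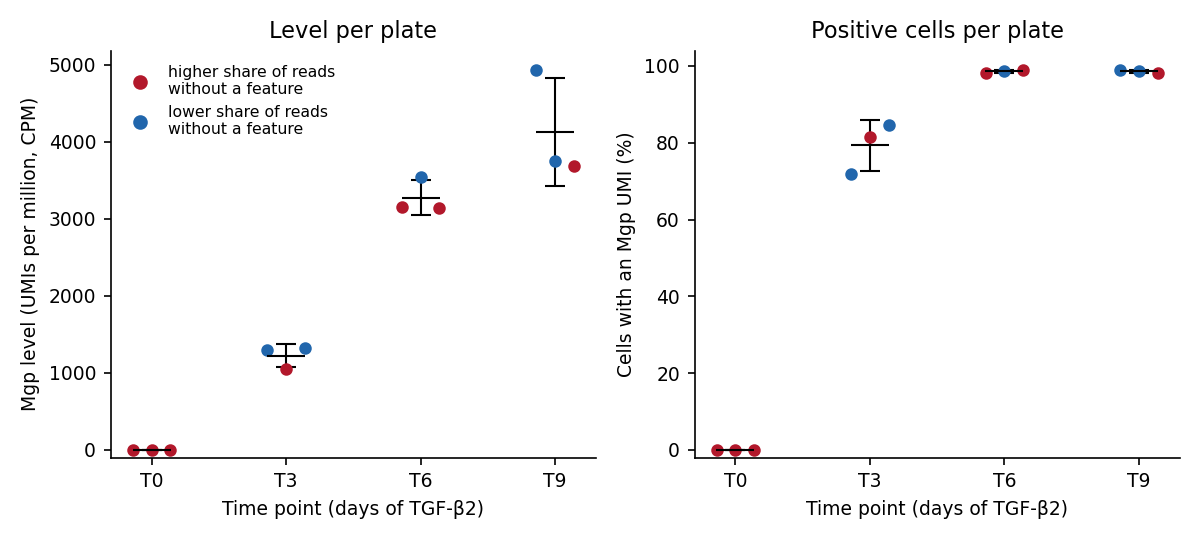
Mgp in the 12 single-cell plates, as CPM of total UMIs on the left and as the percentage of cells with at least 1 Mgp UMI on the right, against the time point. Points are plates, coloured by the share of reads without a feature, and bars are the mean ± SD of 3 plates. The T0 plates sit at 0 in both panels, while CPM goes on from 1222 at T3 to 4126 at T9 and the percentage of cells levels off at 98.6 from T6.

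An Mgp UMI was counted in most cells at T3 and in nearly all wells with a cell at T6 and T9. The share of cells with at least 1 Mgp UMI was 71.9%, 81.5%, and 84.6% in the T3 plates, 98.2%, 98.7%, and 99.0% at T6, and 99.0%, 98.7%, and 98.2% at T9. The T6 and T9 means were 98.6% ± 0.402 and 98.6% ± 0.394, a difference within the spread of the plates. Because T3 cells held fewer UMIs, each cell was also thinned to 3000 UMIs, and the shares were then 70.6% ± 5.07 at T3, 94.98% ± 1.13 at T6, and 94.5% ± 1.52 at T9. Requiring 2 UMIs gave 65.2%, 96.8%, and 96.7%. The positive cells themselves held more Mgp at later times, with a mean of 9.94 UMIs per positive cell at T3, 32.3 at T6, and 36.2 at T9.

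Cells of the same plate differed widely in Mgp. Scaled to 10000 UMIs per cell, the median cell held 6.44, 5.58, and 8.22 Mgp UMIs in the T3 plates, 25.3, 29.9, and 28.3 at T6, and 40.1, 30.7, and 29.7 at T9. The cell at the 90th percentile held 34.0 to 37.6 at T3, 67.4 to 74.6 at T6, and 82.7 to 107.9 at T9. The 10% of cells with most Mgp carried 39.7 to 47.9% of the Mgp UMIs of a T3 plate, 31.5 to 36.5% of a T6 plate, and 32.0 to 33.3% of a T9 plate. After thinning, 29.4% of T3 cells held no Mgp UMI and 3.43% ± 1.67 held 20 or more. At T6 these percentages were 5.02 and 13.1 ± 1.90, and at T9 they were 5.49 and 22.8 ± 5.87. The low end of the distribution was therefore the same at T6 and T9 within the spread of the plates, and the class with most Mgp was larger at T9.

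**Figure D2:**
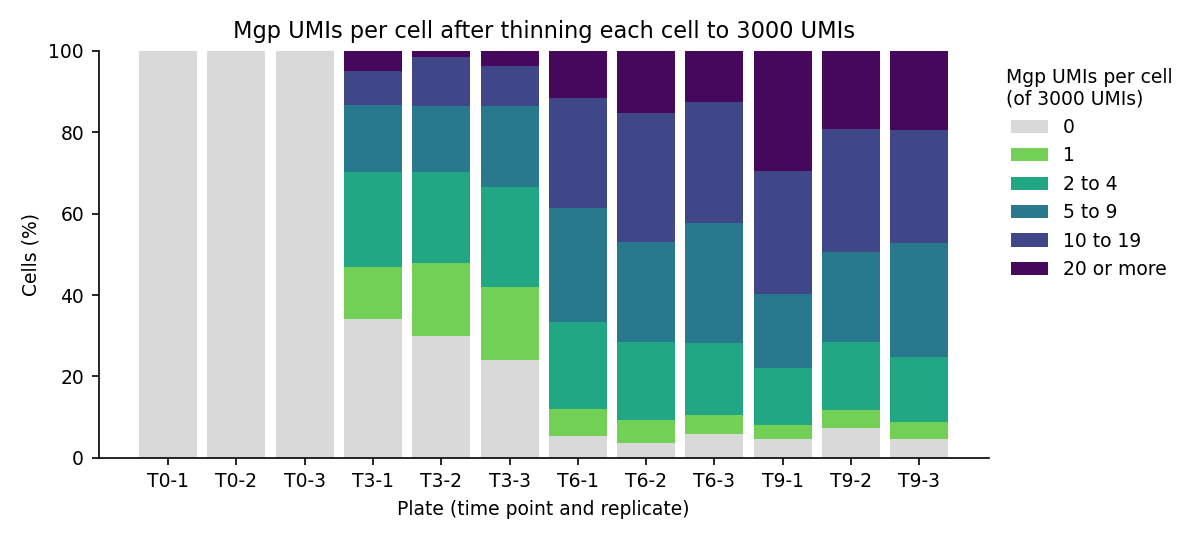
Percentage of cells in 6 classes of Mgp UMI number after thinning every cell to 3000 UMIs, stacked for each plate. All T0 cells are in the class of 0 UMIs, the T3 plates are spread over all classes, and the class of 20 or more UMIs holds 13.1% of T6 cells and 22.8% of T9 cells on average.

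A small number of cells in the treated plates held markers of other lineages, and their Mgp level was compared with that of the remaining cells. Among T3 to T9 cells, 28 held at least 5 of 8 pluripotency markers, and they had 268 CPM of Mgp against 3139 CPM in the other 3391 cells, or 8.54%. The 28 cells with at least 5 of 8 parietal endoderm markers held 256 CPM, or 8.17%. These values pool T3 to T9, over which the marker cells were unequally spread, with 0 endoderm-marker cells at T3. At T3, T6, and T9, the 11, 4, and 13 pluripotent-marker cells had 81.1, 191, and 400 CPM. The other cells had 1241, 3354, and 4385 CPM at these times. Endoderm-marker cells had 200 CPM at T6 (11 cells) and 320 at T9 (17 cells). Srgn and Tfpi are among the endoderm markers, and the study described a cluster with these genes as apparently endothelial. Whether the endoderm-marker cells belong to that cluster was not tested. Over T3 to T9, an Mgp UMI was present in 82.1% of the pluripotent-marker cells (exact 95% interval 63.1 to 93.9) and 89.3% of the endoderm-marker cells. Both kinds of cell were deeper than the other cells, with medians of 18636 and 15693 UMIs against 7407. After thinning, the shares were 46.4%, 60.7%, and 87.6%. The 15 other genes below 5 CPM at T0 and at or above 200 CPM at T9 stood at a median of 9.13% in the pluripotent-marker cells relative to the other cells, with Lox, a collagen cross-linking enzyme, at 9.27% and elastin at 10.1%. They ranged from 3.02% for Ogn to 34.8% for Ndufa4l2 and 119% for the ribosomal pseudogene Rpl27a-ps1, and their median in the endoderm-marker cells was 8.46%. Mgp lay near the median in both kinds of cell, and whether its UMIs there were made in the cells or carried over from other wells of the plate was not tested. At T0, 63 cells with the pluripotency markers held 0 Mgp UMIs.

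Within a plate, Mgp was unevenly distributed with respect to other markers. Cells holding a UMI of Scx, the transcription factor that marks tendon progenitors, had 1286 ± 149 Mgp CPM at T3 against 894 ± 224 in the remaining cells. At T6 the levels were 3368 ± 257 and 2824 ± 365, and at T9 4808 ± 935 and 3630 ± 425. The ratio was above 1 in 9 of 9 plates, and 4.23% of the genes compared were higher in Scx-positive cells in as many plates. With every cell thinned to 3000 UMIs it was above 1 in 8 plates and 1.00 in plate T6-3, with means of 1.28, 1.13, and 1.30. Cells with a UMI of the mature tenocyte marker Tnmd had Mgp ratios of 1.87 at T3, 1.16 at T6, and 1.37 at T9, above 1 in 8 of 9 plates (6.89% of genes in as many), although only 33 T3 cells were Tnmd-positive. With Sox9, a regulator of cartilage and of tendon attachments, the mean ratios were 1.71, 1.24, and 1.19, above 1 in 7 plates (14.4% of genes). With Tgfb2 itself they were 1.42, 1.33, and 1.14, above 1 in 8 plates (9.01% of genes).

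The opposite was seen for 3 further splits. Cells with Aldh1a2, which encodes a retinoic acid-producing enzyme, had less Mgp, with ratios of 0.64, 0.74, and 0.88 and 1 of 9 plates above 1 (11.1% of genes as low in as many plates). Cells above their plate's median of Acta2, smooth muscle α-actin, had ratios of 0.67, 0.86, and 0.83, with 1 plate above 1 (12.4% of genes). Cells holding at least 3 of 8 proliferation markers had ratios of 0.74, 0.84, and 0.74 and were below 1 in all 9 plates (10.2% of genes). Depth differed in these splits, the dividing cells having mean plate medians of 7581 UMIs at T3 against 5069 in the remaining cells. Mgp scaled for depth was itself weakly and negatively related to the UMIs of a cell, with Spearman's rho of −0.17 to −0.09 in the 9 plates. All cells were also thinned to 3000 UMIs, with group membership still set from all their UMIs. The dividing cells then had mean ratios of 0.86, 0.90, and 0.78, above 1 in plates T3-1 and T6-2 and below 1 in 7 of 9 plates. After thinning, the Aldh1a2 and Acta2 ratios were below 1 in 9 of 9 plates, and those of Tnmd, Sox9, and Tgfb2 above 1 in 8 of 9. For thinned cells the share of all genes in as many plates was not computed for any split, so these counts have no background. Thinned Mgp was still related to the total UMIs of a cell, with rho of −0.21 to −0.09. The ratios are descriptions over cells of the same plates.

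**Figure D3:**
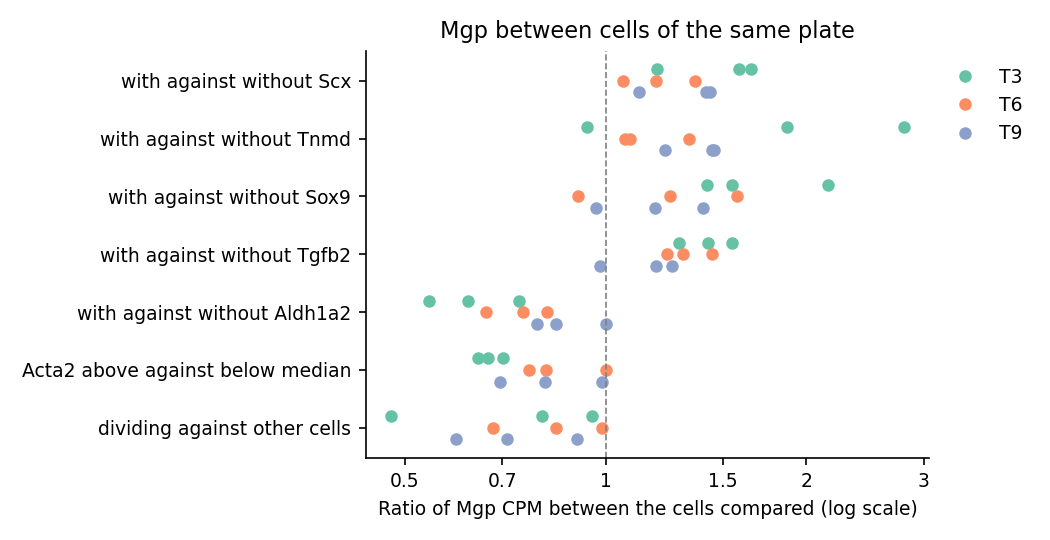
Ratio of Mgp CPM between marker-positive and remaining cells of the same plate, on a log axis, for 7 ways of dividing the cells and 9 treated plates. Points are plates and the line marks a ratio of 1. Without thinning, Scx-positive cells lie above the line in 9 plates and cells with proliferation markers below it in 9 plates, and with cells thinned to 3000 UMIs these counts are 8 and 7.

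The cell-to-cell pattern most like that of Mgp was that of Bgn, which encodes the small matrix proteoglycan biglycan. Its mean within-plate Spearman correlation with Mgp was 0.318 over the 9 treated plates (0.219 to 0.432) among 1655 genes detected in at least 20% of cells, whose median was −0.007. Cells in the top tercile of Mgp held 1174 CPM of Bgn on average and those in the bottom tercile 711. Next came Igfbp4, an IGF-binding protein, at 0.256, followed by Rasl11b at 0.233, Fam162a at 0.218, Capn6 at 0.209, and the metalloproteinase inhibitor Timp2 at 0.207. The early response gene Fos followed at 0.197, Ier3 at 0.196, Rhob at 0.195, and Emp1 at 0.193, and Scx ranked 12 at 0.188. All these values are weak, and only 6 genes exceeded 0.2. They were computed over cells of the same libraries and share the depth of each cell. With thinned cells, 8 of the top 10 genes remained in the top 10.

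At the other end stood Hmgcs1, an enzyme of cholesterol synthesis, at −0.178, with 102 CPM in the top tercile of Mgp and 211 in the bottom tercile. Acta2 had −0.155, with 1171 and 2261 CPM. The lowest 5 were completed by Rbpms at −0.140, the chaperone Hspa4 at −0.138, and the septin Sept11 at −0.134. No gene was below −0.2. Among the 1655 genes, 8.52% were higher in the top tercile in all 9 plates and 6.83% lower.

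Of the genes absent from T0, Mgp reached the highest level. Mgp was chosen by these same counts over time, so its place among them is only a description. There were 4685 genes with 0 UMIs at T0, and 2123 of them had UMIs at T9. Only 18 reached 10 CPM, 3 reached 100 CPM, and Mgp alone reached 1000 CPM. The other 2 above 100 CPM were the interferon-responsive gene Ifi27l2a at 280 ± 42.7 and Tnmd at 106 ± 37.9.

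Over the 12 plates, the profile of Ifi27l2a was also the one most like Mgp, with Pearson's r of 0.998 on log2(CPM + 1) among 3604 genes with a mean of at least 50 CPM. Its means were 0, 98.0, 242, and 280 CPM at T0, T3, T6, and T9. Lox followed with r of 0.997 and with 2.91, 541, 885, and 1416 CPM. Kdelr3, Fam162a, Emp1, Tmem45a, Selenom, Sparcl1, Sec24d, and Ier3 made up the first 10, all at 0.988 or more. These coefficients mostly restate the distance of T0 from the treated plates, since 117 genes exceeded 0.95. Over the 9 treated plates the same 10 genes ranged from 0.575 to 0.972. Fam162a, Emp1, and Ier3 were among the first 10 both over plates and over cells. Bgn, first over cells, measured 10.4 ± 4.41, 371 ± 124, 943 ± 91.4, and 1541 ± 390 CPM. Scx took another course, with means of 9.51 ± 2.39, 734 ± 28.6, 564 ± 77.6, and 162 ± 47.4 CPM in time order, and the highest Mgp levels were measured where Scx was well below its T3 level.

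The neighbouring genes were looked at to see whether the locus moved as a whole. Within 200 kb of Mgp, 11 other protein-coding genes are annotated, and 4 of them were too low to test, among them Art4, the closest at 14702 bases. Rerg, a Ras-related growth inhibitor 179002 bases away, rose from 3.55 ± 1.61 CPM at T0 to 24.2 ± 1.77 at T9 (log2 difference 3.24, SE 0.32, adjusted p = 2.63e-06, edgeR). Wbp11, a splicing factor, fell from 148.5 ± 8.88 to 67.6 ± 12.3 CPM (−0.66, SE 0.15, adjusted p = 0.0026, edgeR). Hist4h4, H2afj, BC049715, and Arhgdib did not pass the test, and Smco3 was not in the single-cell table. The genes on either side of Mgp thus did not share its level, as Art4 and Erp27 stayed at or below 0.597 CPM in the mean of every time point.

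For the gene lists below, T9 was compared with T0 and with T3 in a single edgeR fit of all 12 plates. Of 13372 genes tested, 23.6% were higher and 21.6% lower at T9 than at T0, while 8.31% were higher and 5.79% lower than at T3. These shares are the background for each count. Log2 differences are on the TMM scale, where the median gene stood at −0.02 and −0.01. With total UMIs as the scale, the median moved to −0.49 against T0 and −0.27 against T3, and the 3155 higher and 2895 lower genes against T0 became 1755 and 4468, the 1111 and 774 against T3 568 and 1052. No called gene of the lists changed its direction between the scales. The lists and Mgp share the same libraries, and the 2 contrasts share the T9 plates.

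Genes of the vitamin K cycle, among them the carboxylase and a protein that restrains it, were in part higher at T9 than at T0. Of 6 vitamin K cycle genes, all tested, 3 rose and 0 fell at T9 against T0 (median log2 difference 1.46). The CPM of Vkorc1, which regenerates reduced vitamin K, was 89.1, 88.9, and 82.1 in the T0 plates and 498.1, 438.1, and 358.5 at T9 (log2 difference 2.85, SE 0.29, adjusted p = 3.29e-06, edgeR). Calu, encoding calumenin, an endoplasmic reticulum protein that restrains the carboxylase, went from 119 ± 14.1 to 329 ± 25.5 CPM (1.96, SE 0.20, adjusted p = 2.82e-06). Ggcx, the carboxylase itself, was at a low level throughout, with 10.7, 7.64, and 9.42 CPM at T0 and 20.1, 23.1, and 34.5 at T9 (1.94, SE 0.24, adjusted p = 1.81e-05). None of the T0 and T9 plates overlapped for these 3 genes, as was so for 60.8% of all genes tested. Vkorc1l1, the paralogue of Vkorc1, had a log2 difference of 0.09, and the vitamin K and quinone reductases Aifm2 and Nqo1 had −0.08 and 0.97, none past the threshold. On CPM, Vkorc1l1 (29.1 at T0 and 22.0 at T9) and Aifm2 (13.9 and 9.43) were lower at T9, also without overlap of the plates. Against T3, Vkorc1 rose further (from 220 ± 35.2 CPM, 1.24, adjusted p = 0.0075, edgeR), as did Calu (0.65, adjusted p = 0.034). The Calu call against T3 was lost in 7 of 15 alternative analyses, among them those without plate T3-1, T3-2, T9-1, or T9-2 (adjusted p = 0.084 to 0.12, edgeR). Within plates, Vkorc1 and Calu, the 2 list genes detected widely enough, had mean correlations of 0.119 and 0.086 with Mgp over cells.

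Among the other Gla proteins, the one with the largest difference was Gas6, a ligand of the Tyro3, Axl, and Mertk receptors. Its CPM was 0.43, 3.24, and 1.08 in the T0 plates and 155, 135, and 243 at T9 (log2 difference 7.23, SE 0.41, adjusted p = 1.19e-08, edgeR). Of 16 further members, 13 were in the single-cell table and 6 passed the filter on low counts. Besides Gas6, Pros1, the anticoagulant protein S, rose from 45.4 ± 4.04 to 108 ± 11.6 CPM (1.74, SE 0.21, adjusted p = 1.50e-05). The transmembrane Gla proteins Prrg3 (14.8 to 27.4 CPM, 1.38, adjusted p = 0.00024) and Prrg1 (9.94 to 14.2 CPM, 0.97, adjusted p = 0.0071) were also called, Prrg1 not with total counts. None fell, and Prrg2 and Prrg4 did not pass. Against T3 only Gas6 and Pros1 rose, from 70.1 and 58.0 CPM (adjusted p = 0.0021 for both, edgeR). Mgp exceeded each of them, and in this assay a UMI stands for a transcript whatever its length. Bglap, a gene for osteocalcin, the Gla protein of bone, gave 1 UMI in all 12 plates together, at T6. This count leaves out Bglap2 and Bglap3, which are also on the list.

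**Figure D4:**
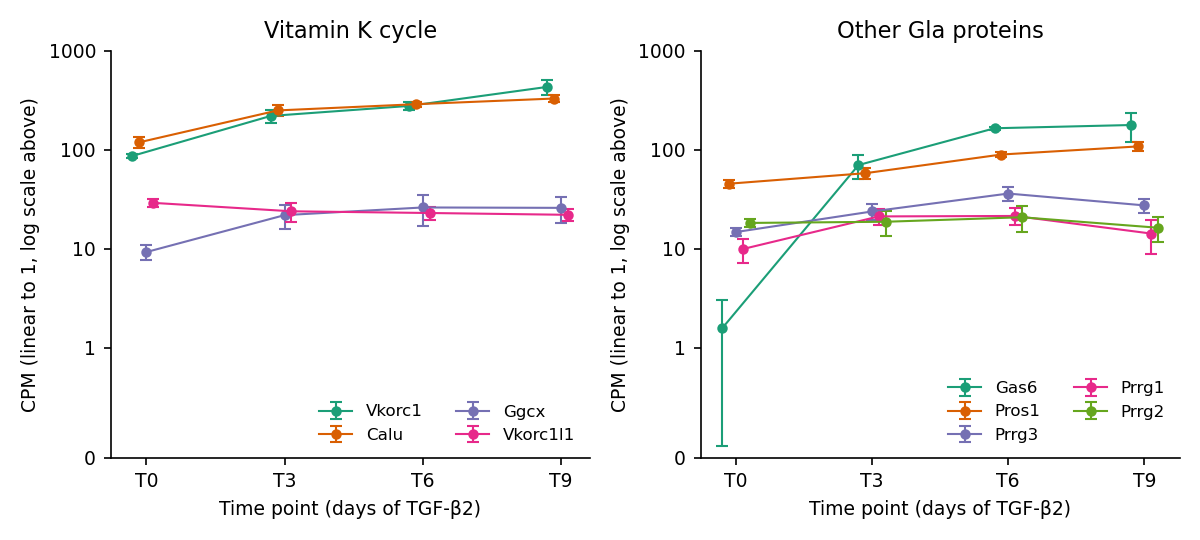
Mean CPM ± SD of 3 plates at T0, T3, T6, and T9 for genes of the vitamin K cycle and for other Gla proteins. Vkorc1 and Calu lie at 432 and 329 CPM at T9, Ggcx at 25.9, and Gas6 comes from 1.58 CPM at T0 to 178 at T9.

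Genes that regulate mineral deposition did not move as a group. Of 18 on the list, 7 could be tested at T9 against T0, 2 rose and 1 fell, with a median log2 difference of −0.04, whereas with total counts 1 rose and 2 fell (median −0.67). Enpp1, which produces the mineralization inhibitor pyrophosphate, rose from 0.85 to 17.3 CPM (4.76, SE 0.47, adjusted p = 2.63e-06, edgeR). Ank, which serves the release of pyrophosphate from cells, rose from 7.36 to 11.1 CPM (1.07, adjusted p = 0.0099), a call lost with total counts. The phosphate importer Slc20a1 fell from 85.7 to 26.1 CPM (−1.25, adjusted p = 0.00040). Alpl, the phosphatase that removes pyrophosphate, measured 6.49 and 4.49 CPM and did not pass. Against T3, 1 gene rose, Enpp1, and its call was lost in 9 of 15 alternatives, among them those without plate T3-2, T3-3, T9-1, or T9-2 (adjusted p = 0.072 to 0.12, edgeR). None of the 3 osteoblast markers tested was called at T9 against T0, and the summed level of all 8 was 24.1 to 36.3 CPM at T0 and 17.0 to 29.2 at T9, with Bglap and Ibsp at 0 at T9.

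The BMP pathway was examined because matrix Gla protein binds BMPs. At T9 against T0, 7 of 20 genes tested rose and 6 fell (median log2 difference 0.25), and with total counts 4 rose and 6 fell (−0.21). Among ligands, Bmp2 rose from 5.41 to 10.8 CPM (1.47, adjusted p = 0.0063, edgeR, and 0.058 with total counts) and Bmp7 fell from 26.4 to 6.15 CPM (−1.63, adjusted p = 0.00050). Bmp4 was called higher at 61.9 and 71.0 CPM, with overlapping plates, and lost its call in 8 of 15 alternatives, among them those without any 1 of the T0 plates, T9-1, or T9-3 (adjusted p = 0.062 to 0.17, edgeR). The type I receptors Acvr1 (42.1 to 91.1 CPM, adjusted p = 0.00012) and Acvrl1 (3 UMIs in all T0 plates and 94 at T9) rose. Of the secreted regulators, Nog rose from 8.70 to 18.2 CPM (adjusted p = 0.00042), Bmper from 3.72 to 11.4 (adjusted p = 0.0058), and Chrd was called with overlapping plates (10.6 and 20.7 CPM) and was lost with total counts and without T0-3 or T9-3 (adjusted p = 0.062 and 0.13, edgeR). Inside the cell, the signal transducers Smad5 and Smad9 and the inhibitor Smad6 fell, and so did the target Id2, from 388 ± 37.0 to 111 ± 16.6 CPM (−1.32, adjusted p = 8.63e-05, edgeR). Id3 fell by 0.48 on the log2 scale, a call lost in 7 alternatives, among them those without any 1 of the T0 plates, T9-2, or T9-3 (adjusted p = 0.053 to 0.098, edgeR), and Id1 was at 390.5 and 356 CPM without a call. Against T3, Bmp2 rose and Bmp7, Smad5, Smad7, and Id2 fell. Of these, Bmp2 was lost without T3-2 or T9-2 (adjusted p = 0.056 and 0.064, edgeR), Bmp7 without T3-2, T3-3, T9-1, or T9-3 (0.060 to 0.13), and Smad7 without T3-2, T9-1, or T9-2 (0.0509 to 0.0619).

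Of the 4 matrix proteins on the list of Mgp partners, 3 were tested. Eln, encoding elastin, had 5 UMIs in the T0 plates, and its CPM at T9 was 853, 690, and 1803 (adjusted p = 1.63e-09, edgeR). It was the gene of this list that also rose against T3, from 46.6 ± 13.9 CPM (4.79, SE 0.34, adjusted p = 2.02e-06). Fn1, fibronectin, rose from 604 ± 50.7 CPM at T0 to 1923 ± 1062 at T9 (2.09, adjusted p = 2.65e-05) and had been at 2519 ± 698 at T3. Spp1, osteopontin, was variable at 76.7 ± 50.4 and 48.3 ± 39.7 CPM and did not pass.

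Marker lists of other cell types moved in different directions. All 10 tenocyte markers rose at T9 against T0, with a median log2 difference of 6.10, the same with Tnmd and Kera at their lower bounds. All 7 smooth muscle markers rose too, Acta2 from 311 ± 115 to 2363 ± 521 CPM (3.41, adjusted p = 4.50e-07, edgeR), and their summed level was 278 to 599 CPM at T0 and 2312 to 3523 at T9. Only the Myocd call depended on single plates, T0-1, T0-3, or T9-3 (adjusted p = 0.071 to 0.24 without 1 of them, edgeR). Among loose connective tissue fibroblast markers, 4 of 6 tested rose and 1 fell, with Dcn, encoding decorin, going from 5.61 ± 2.29 to 2581 ± 197 CPM. Chondrocyte markers did not rise, and of 4 tested 0 rose and 2 fell, Col2a1 from 12.8 to 0.52 CPM and Hapln1 from 40.6 to 0.65 CPM. Their summed level was 202 to 223 CPM at T0 and 61.0 to 130 at T9, with Col9a1, Col11a2, Matn1, Cnmd, and Col10a1 at 0 at T9. All 8 proliferation markers fell. Of 11 parietal endoderm markers tested, 10 rose against T0 and 10 against T3. Their summed level was 997 to 1158 CPM at T0 and 6113 to 11233 at T9, most of it from Sparc, a matrix protein that connective tissue cells make as well (772 and 7132 CPM). Both endothelial markers tested, Kdr and Egfl7, rose against T0, from 1.87 to 43.5 and from 9.05 to 17.97 CPM, and the 8 markers summed to 13.5 to 18.04 CPM at T0 and 46.6 to 100.5 at T9, with Cdh5 and Vwf at 0 at T9. Of 6 pluripotency markers tested 0 rose and 1 fell (0 by DESeq2), of 2 adipocyte markers 1 rose and 1 fell, neither of 2 skeletal muscle markers was called, and no blood or immune marker passed the filter on low counts. The part of these changes in the Mgp level was not tested.

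In the Achilles tendons, the targeted gene was checked first. Scx was counted with 1151 and 996 reads in the Scx-Wt samples and 287 and 296 in the Scx-homoKO samples (log2 difference −1.88, SE 0.17, adjusted p = 0.00043, edgeR). Reads mapped to Scx thus remained in the knockouts, and which part of the gene they came from is not shown by a gene-level table. Of 14602 genes tested, 1.77% were higher and 2.07% lower in Scx-homoKO.

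Mgp was present in every tendon at similar levels. It gave 3474 and 3108 reads in Scx-Wt and 3221 and 2490 in Scx-homoKO, or 310.5 and 253.6 CPM against 259.8 and 211.4. The genotypes overlapped, with means of 282 ± 40.3 and 236 ± 34.2 CPM (SD, n = 2). The log2 difference was −0.21 (SE 0.17, 95% interval −0.59 to 0.16, adjusted p = 0.57, edgeR quasi-likelihood test with Benjamini-Hochberg adjustment), so a change was not detected, and the interval still allows a decrease of 0.59 on the log2 scale. Over the alternatives the difference ranged from −0.33 to −0.10 and the adjusted p from 0.457 to 0.914. Per length, the level was 262 and 214 RPKM, read counts scaled by exon length and library size, in Scx-Wt and 219 and 178 RPKM in Scx-homoKO. By RPKM, Mgp ranked between 113 and 190 among the genes detected in a sample. The length used was that of all annotated exons, 1187 bases, against 617 in the protein-coding transcript, and the level and rank depend on it.

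In the same fit Tnmd fell, with 16336 and 15406 reads against 3327 and 3113 (−2.30, SE 0.20, adjusted p = 0.00028, edgeR), as did Mkx, Fmod, and Kera. With these and Scx, 5 of 10 tenocyte markers were lower and 0 higher, and Scx is the targeted gene itself. Bgn, the gene most like Mgp over the cultured cells, had 357 and 271 RPKM in Scx-Wt and 402 and 416 in Scx-homoKO (0.43, adjusted p = 0.36) and was not called. The differences of Mgp and of the 5 markers come from the same 4 samples, and whether they differ from each other was not tested.

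Marker levels of other cell types were not the same in the 2 genotypes. The summed CPM of 8 skeletal muscle markers was 36706 and 62724 in Scx-Wt and 80681 and 84280 in Scx-homoKO, with no marker at 0. The sum of 12 chondrocyte markers, a cell type that makes Mgp, was 2377 and 2571 against 143 and 115, with Matn1 and Snorc at 0 in all samples. Smooth muscle markers gave 2875 and 2378 against 3460 and 3238, a sum dominated by Des, which skeletal muscle shares (1880 and 3056 CPM). The median log2 difference of the 7 smooth muscle markers was −1.34, with Acta2 called as lower, and the means of Tagln were 172 and 57.9 CPM and those of Myh11 119 and 32.4. Endothelial markers gave 880 and 869 against 636 and 519. The 6 adipocyte markers gave 4787 and 2122 against 1265 and 778. Markers of loose connective tissue fibroblasts, also a cell type that makes Mgp, gave 4609 and 4025 against 4706 and 4987. Of 8 tested, 2 were called higher in Scx-homoKO, Dpt and Lum, and 0 lower. In bulk tissue, fewer cells of a type and less RNA per cell cannot be told apart, and the part of these differences in the Mgp values was not tested.

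The lists related to Mgp were also compared between genotypes, where 1.77% of all 14602 genes tested were higher and 2.07% lower in Scx-homoKO. None of the 6 vitamin K cycle genes was called by edgeR or DESeq2, and 1 of them, Aifm2, had an unadjusted p under 0.05 and was called without a filter on low counts and with the replicate number as a block. Per length, the 4 samples had 9.2 to 10.4 RPKM for Ggcx, 44 to 59 for Vkorc1, and 122 to 143 for Calu. Gas6 measured 346 and 342 CPM in Scx-Wt and 373 and 367 in Scx-homoKO (0.15, adjusted p = 0.70, edgeR). Of the 8 Gla protein genes tested including Mgp, 1 fell. It was Ucma, the Gla-rich protein of cartilage, with 290 and 338 reads in Scx-Wt and 0 and 0 in Scx-homoKO, or at least 216-fold lower against the limit of 3 reads over the group (adjusted p = 7.93e-05, edgeR). Among mineral regulators 1 of 13 was called, the ectonucleotidase Nt5e, which fell from 43.4 ± 3.46 to 18.1 ± 0.81 CPM (−1.21, adjusted p = 0.0050). Within the BMP pathway 2 of 21 fell, Bmp6 from 19.3 to 5.03 CPM (−1.90, adjusted p = 0.0049) and the receptor Bmpr1b from 29.9 to 6.97 CPM (−2.07, adjusted p = 0.0100).

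Among these lists, elastin was called in the other direction. Eln had 16892 and 9138 reads in Scx-Wt and 57468 and 72237 in Scx-homoKO (log2 difference 2.32, SE 0.34, adjusted p = 0.0055, edgeR), and it was the 1 of 4 matrix partners called in this fit. Fn1 was at 843 ± 237 and 1286 ± 196 CPM (0.67, adjusted p = 0.18) and was called in 3 of 9 alternatives, by DESeq2, without a filter on low counts, and without Scx-Wt replicate 1. Chondrocyte markers fell in 5 of 10 tested, among them Col2a1 from 627 ± 43.3 to 17.9 ± 7.83 CPM and Col11a2 from 1708 ± 188 to 82.0 ± 2.88 CPM, and Acta2 fell from 431 ± 135 to 195 ± 65.5 CPM. The Acta2 call was lost with total counts and without Scx-Wt replicate 1 or Scx-homoKO replicate 2 (adjusted p = 0.11 and 0.13, edgeR), and that of Hapln1 without Scx-Wt replicate 2 (0.092).

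**Figure D5:**
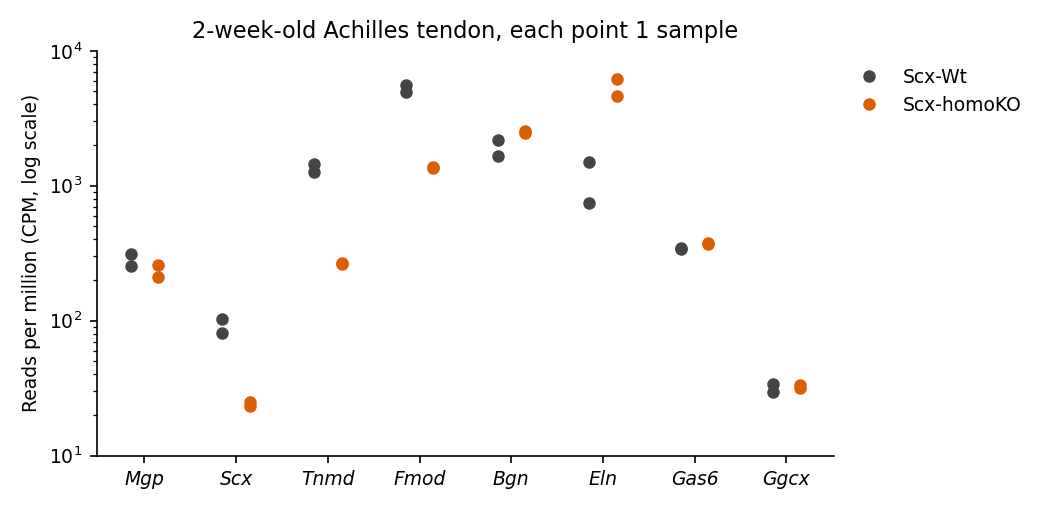
CPM of Mgp and 7 other genes in the 2 Scx-Wt and 2 Scx-homoKO Achilles tendon samples, on a log axis, with a point for each sample. The Mgp points of the genotypes overlap between 211 and 311 CPM, those of Scx, Tnmd, and Fmod are lower in Scx-homoKO, and those of Eln are higher.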

How the data were processed

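Single-cell libraries were made by the authors with CEL-Seq2, which tags 3′ transcript ends in sorted single cells with a well barcode and a 6-base UMI. Per the submitters' processing notes, reads were aligned to GRCm38 with HISAT2 (2.2.1 for cells, 2.0.4 for bulk) and counted with featureCounts (1.5.0 for bulk) and UMI-tools 1.0.1. The annotation release and the strand setting are not given in the sources used here. The deposited tables hold raw counts, UMI counts per gene and well and read counts per gene and bulk sample, without normalization.

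Here, 3 of 29632 entries outside Ensembl were left out (0.0642% of UMIs), and 4594 of 4608 wells with at least 200 detected genes were kept. Wells held sorted single cells, and no doublet caller was run. Gene symbols were matched for 29528 of 29629 and 47224 of 47729 IDs from a GENCODE annotation of GRCm38. UMIs were summed per plate, and CPM is the count scaled to a library total of 1000000. All 12 plates were fitted together, and the 4 bulk samples separately, with edgeR 4.0.16 (filterByExpr, TMM, quasi-likelihood test, Benjamini-Hochberg adjusted p of 0.05) in R 4.3.3, with DESeq2 1.42.0 as an alternative. Simulated counts had 200 genes changed 3-fold, drawn only above a minimum level, so recovery of low genes was not measured. The fit recovered 91.5% with 6 false calls for T9 against T0 and 95% with 11 for T9 against T3. For the bulk contrast it recovered 99.5%, or 199 genes, with 28 false calls.

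Mgp and the 17 gene lists were chosen with earlier results of these data known. An item of the lists is not reported here. The genes named are Mgp, members of these lists, the 10 and 5 genes with the highest and lowest mean within-plate Spearman correlation with Mgp, the 10 with the highest correlation over plates, and protein-coding genes within 200 kb. Genes named outside this rule were singled out after their values were seen. Alternatives were other scalings, filters, thinning, the replicate number as a block, and each library left out. Total counts, thinning for the splits of cells, the split by reads without a feature, TMM-scaled CPM, and leaving out cells with other lineage markers were added after seeing the data. Exact Poisson and Clopper-Pearson 95% intervals, and limits from a count of 0 (3 counts), cover counting error only. Within-cell values were computed with Python 3.11.15, numpy 2.4.6, pandas 2.3.3, and scipy 1.17.1.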

Additional observations from a re-analysis of the deposited data

How the results depend on the processing

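The Mgp difference between Scx-homoKO and Scx-Wt was negative and not called in all 9 alternatives, with −0.33 to −0.10 when a library was left out. Of 118 alternative values for the main results, 101 stayed within the limits set, and 17 moved. For Mgp levels and shares the limit was the SD of the 3 plates. For numbers of genes called it was a ratio of 1.5, and for Mgp in bulk the adjusted p threshold. Mgp values at T0 were all 0, and leaving out a plate of the 3 cannot shift a mean by the SD. Those values could not move, so their staying carries no information. At T3, Mgp was 1048 CPM from the plate with more reads without a feature alone and 1171 to 1309 when a plate was left out. At T6 it was 3540 from the plate with fewer such reads and 3147 to 3346 when a plate was left out, and at T9 5022 with TMM-scaled CPM and 3720 to 4347. The share of cells with an Mgp UMI was 70.6% at T3 after thinning and 65.2% with 2 UMIs required, with a range of 76.7 to 83.0 when a plate was left out. At T6 it was 94.98% after thinning, 96.8% with 2 UMIs, and 99.3% in cells with at least 1000 genes (98.4 to 98.8 with a plate left out). At T9 it was 94.5%, 96.7%, and 99.2% in the same order, 98.2% in the plate with more reads without a feature, and 98.4 to 98.8 with a plate left out. The number of genes called for T9 against T3, 1885, became 3405 with reads without a feature as a covariate, 1205 with only the 6 plates compared, and 1152 to 2228 with a plate left out. That for T9 against T0 ranged from 4774 to 6491 around 6050 across plates left out. The bulk number of 560 became 1415 without a filter on low counts, and 380 to 666 with a sample left out. Leaving out single plates or samples uses fewer samples. The cause of the other changes was not tested. With total counts the numbers were 6223, 1620, and 442. In the plates, same-number deviations were not more alike than others. They correlated between −0.34 and 0.19 for T9 and T3 (other numbers −0.34 to 0.49). For T9 and T0 they correlated between −0.06 and 0.09 (other numbers −0.12 to 0.15). In bulk the value was 0.07. With 2 samples per genotype the other numbers mirror it at −0.07, so it cannot show whether the bulk samples were paired. With the replicate block the numbers were 5653, 1523, and 1108. For single genes, 2441 values stayed on the same side of the threshold, 68 lost and 61 gained a call, and 0 changed direction. At 2 samples per genotype and 11188270 to 12398560 reads, the interval for Mgp in bulk still spans −0.59 to 0.16.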
